A study of Mus musculus with 8 samples.

Results

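Leukocyte adhesion genes were examined in endothelial cells sorted from the colon of mice on day 2 of a bone marrow transplant. The study is about early graft-versus-host disease, in which donor T cells attack the recipient, and its controls received cells of their own strain. The set was a list of 9 genes among the 22180 genes measured: the selectin genes Selp and Sele, the immunoglobulin-type genes Icam1, Icam2, Vcam1 and Alcam, the mucin-type Madcam1, and the adhesion genes Cd44 and Cd99l2. Each had exactly 1 probe set under its symbol, so all 9 were measured. Cells that carried CD31 and lacked CD45 and CD11b were sorted, and their RNA was read on 8 Affymetrix Mouse Gene 2.0 arrays.

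In the allogeneic group (n = 4) female C57BL/6 recipients were given bone marrow and T cells of LP/J donors. In the syngeneic group (n = 4) female C57BL/6 recipients were given the same cells of C57BL/6 donors. All recipients of both groups had 5 days of busulfan and cyclophosphamide before the transplant, and no untransplanted mice were analysed here. The strains are those of the donor strain label, while the growth protocol calls the source of the cells recipients. The age of the mice is not given in the sources used here.

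Leukocytes leave the blood in steps. Selectins on activated endothelium catch passing cells and let them roll, immunoglobulin-type molecules then hold them through leukocyte integrins, and molecules of the CD99 family guide them through the vessel wall. Inflammatory cytokines, acting largely through NF-kB, induce several of these genes in endothelium, while others are made all the time. In the gut, MAdCAM-1 on venules is the address that homing T cells read, and it is one of the routes by which donor T cells enter the intestine.

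Values are log2 signals after RMA, on which a difference of 1 is a doubling, and precision is limited by the number of arrays. The sort gene Pecam1 averaged 10.1 ± 0.32 in the allogeneic group and 10.6 ± 0.80 in the syngeneic group (SD, n = 4 each). Ptprc, which encodes the excluded CD45, averaged 5.20 ± 0.76 in the allogeneic and 5.19 ± 0.63 in the syngeneic group (SD, n = 4 each). It ran from 4.42 to 6.18 on allogeneic and from 4.61 to 5.76 on syngeneic arrays. Itgam, which encodes the excluded CD11b, averaged 5.27 ± 0.13 in the allogeneic and 5.41 ± 0.43 in the syngeneic group (SD, n = 4 each). Means over 24 pan-endothelial genes ran from 7.60 to 8.26 on allogeneic and from 7.89 to 9.76 on syngeneic arrays. Syngeneic arrays 3 (8.89) and 4 (9.76) stood above the other 6. Transcripts of colon epithelium were abundant throughout, with means over 20 marker genes of 10.5 to 10.6 on allogeneic and 9.94 to 10.6 on syngeneic arrays, lowest on the same syngeneic arrays. In such bulk samples, fewer cells of a type and less RNA per cell cannot be told apart, and the part of endothelial and epithelial content in the results on adhesion genes was not tested beyond the values given beside them.

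None of the 9 genes passed an adjusted p of 0.05 in limma, against 0.469% of all genes in either direction. An unadjusted p below 0.05 was reached by 4 of the 9, against 13.2% of all genes. Of these 3 had lower allogeneic means, against 5.43% of all genes, and 1 a higher one, against 7.81%. Of the 9 genes 6 had a negative log2 change (allogeneic minus syngeneic), as 51.0% of all genes did. These 6 included all 5 that cytokines are known to induce or raise, namely Icam1, Selp, Vcam1, Sele and Madcam1. The median log2 change was -0.89 over these 5, -0.48 over the 9 and -0.0050 over all genes. It was -0.65 over the 24 pan-endothelial genes, all of which had a negative log2 change too. By level, 7 genes lay above the median gene on all 8 arrays. Sele and Vcam1 were dimmer, but their means lay more than 1 log2 unit above the highest signal of 3 Y-linked genes (3.18), which served as a guide to background in female recipients. Sele on allogeneic array 3 (3.98) was within that unit. Signals of different probe sets were not ranked against each other.

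**Figure D1:**
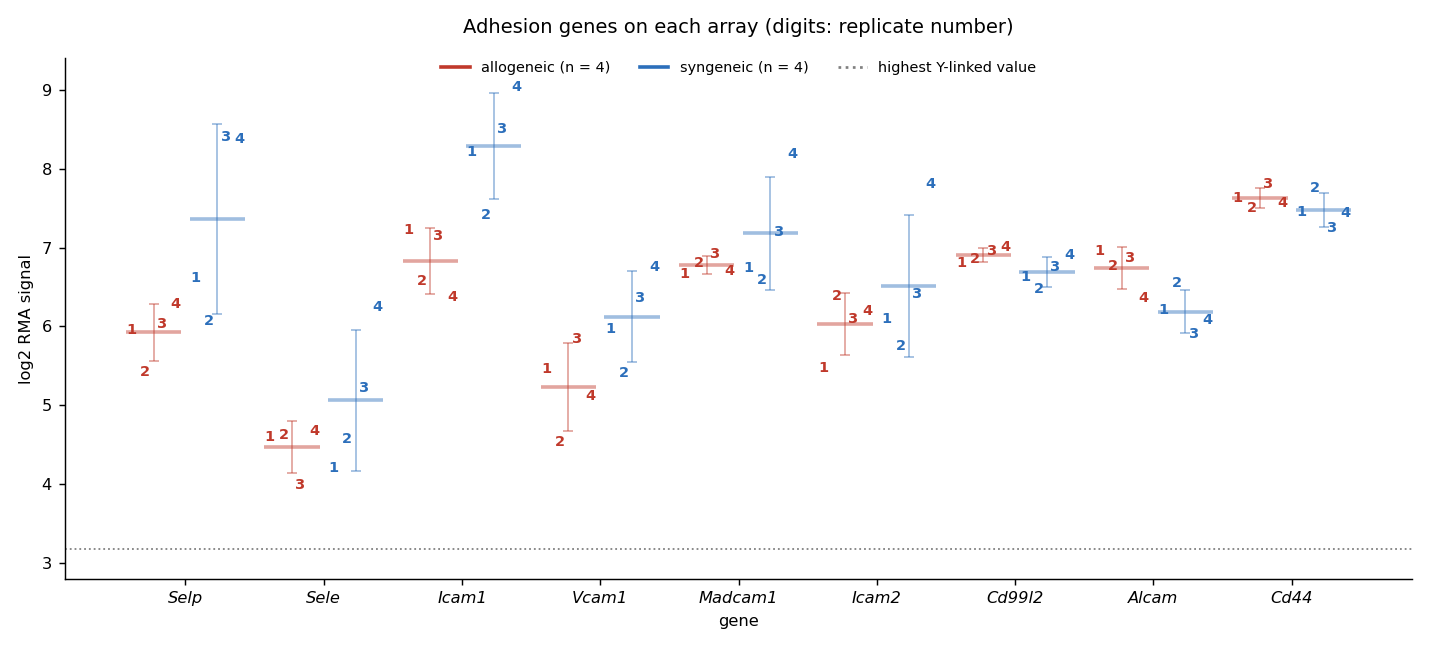
Log2 RMA signal (vertical axis) of each adhesion gene (horizontal axis) on the 4 allogeneic (red, left) and 4 syngeneic (blue, right) arrays; digits are replicate numbers, horizontal bars group means, error bars 1 SD and the dotted line the highest Y-linked value (3.18). Icam1 is the gene whose groups do not overlap, with the highest allogeneic array at 7.22 and the lowest syngeneic array at 7.42.

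Selp encodes P-selectin, which endothelial cells and platelets store in granules and bring to the surface within minutes. It was at 5.96, 5.42, 6.03 and 6.29 on allogeneic arrays 1 to 4, against 6.61, 6.07, 8.41 and 8.38 on syngeneic arrays 1 to 4. Syngeneic arrays 3 and 4 stood far above every other array, and syngeneic array 2 lay inside the allogeneic range. Its means were 5.92 ± 0.37 in the allogeneic group and 7.37 ± 1.21 in the syngeneic group (SD, n = 4 each), and the log2 change was -1.44 ± 0.49 (SE, 95% interval -2.52 to -0.37, limma adjusted p = 0.229). Without syngeneic arrays 3 and 4 the log2 change was -0.42 ± 0.26 (SE, limma adjusted p = 0.633). The venous marker genes, which mark the vessels where P-selectin is stored, were highest on the same arrays, with list means of 6.59 to 6.84 on allogeneic arrays, 6.77 and 7.11 on syngeneic arrays 2 and 1, and 7.73 and 7.94 on syngeneic arrays 3 and 4. Platelet genes lay close together, with list means of 4.76 to 4.95 on allogeneic and 4.80 to 5.10 on syngeneic arrays, and the platelet chemokine gene Pf4 averaged 5.95 in the allogeneic and 5.42 in the syngeneic group. Their part in the signal of Selp was not tested.

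Sele encodes E-selectin, which is made by endothelium after cytokine stimulation. Its values were 4.60, 4.62, 3.98 and 4.67 on allogeneic arrays, against 4.20, 4.58, 5.22 and 6.25 on syngeneic arrays. Syngeneic arrays 1 and 2 lay within the allogeneic range and arrays 3 and 4 above it. The log2 change was -0.59 ± 0.37 (SE, 95% interval -1.42 to 0.23, limma adjusted p = 0.542). It was -0.20 without syngeneic array 4 and 0.08 without syngeneic arrays 3 and 4.

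Icam1 encodes the ligand of the leukocyte integrins LFA-1 and Mac-1, on which rolling cells come to a halt. It was at 7.22, 6.58, 7.15 and 6.38 on allogeneic arrays, against 8.21, 7.42, 8.51 and 9.03 on syngeneic arrays. All 4 allogeneic values lay below all 4 syngeneic values, by a gap of 0.19 at the closest. It was the only one of the 9 genes without overlap, where 8.55% of all genes had none and 3.36% had none with allogeneic arrays lower. The allogeneic mean was 6.83 ± 0.42 and the syngeneic mean 8.29 ± 0.68 (SD, n = 4 each), so that the log2 change was -1.46 ± 0.32 (SE, 95% interval -2.16 to -0.76), or 0.364 of the syngeneic level. The gene ranked 226 of 22180 by p and missed the threshold (limma adjusted p = 0.0827). Without syngeneic array 2, whose value is the lowest of its group, it passed with a log2 change of -1.75 (limma adjusted p = 0.0282). Without syngeneic arrays 3 and 4 the log2 change was -0.98 ± 0.29 (SE, limma adjusted p = 0.263), and with the pan-endothelial mean of each array as a covariate it was -1.03 ± 0.29 (SE, limma adjusted p = 0.226).

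Vcam1 encodes the vascular ligand of the integrin that contains the Itga4 product, used by lymphocytes and monocytes. It was at 5.46, 4.53, 5.84 and 5.11 on allogeneic arrays, against 5.97, 5.40, 6.36 and 6.76 on syngeneic arrays. The groups overlapped through allogeneic arrays 1 and 3 and syngeneic array 2. The allogeneic mean was 5.24 ± 0.56 and the syngeneic mean 6.12 ± 0.58 (SD, n = 4 each), and the log2 change was -0.89 ± 0.32 (SE, 95% interval -1.60 to -0.18, limma adjusted p = 0.265). It was -0.45 ± 0.33 (SE) without syngeneic arrays 3 and 4.

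Madcam1 encodes the gut-homing address read by the integrin of Itga4 and Itgb7. It was at 6.67, 6.81, 6.92 and 6.70 on allogeneic arrays, against 6.75, 6.59, 7.20 and 8.19 on syngeneic arrays. The allogeneic arrays lay close to each other, and syngeneic array 4 alone stood well above the rest. The log2 change was -0.41 ± 0.30 (SE, 95% interval -1.06 to 0.25, limma adjusted p = 0.614). Without syngeneic array 4 it was -0.07 and without syngeneic arrays 3 and 4 it was 0.11. Follicular dendritic and reticular cells can also make MAdCAM-1, and the list means of their 5 markers overlapped, at 5.07 to 5.52 on allogeneic and 5.18 to 5.46 on syngeneic arrays. Their part in the signal was not tested.

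Promoters are shown for the 4 inducible genes that the RefSeq table (GRCm38.p6) holds, since these genes had the same sign of change and their induction is known to run through NF-kB. The windows are the 250 bases before the start of Icam1 (chr9:21015690-21015939), Sele (chr1:164047984-164048233), Madcam1 (chr10:79664309-79664558) and Selp (chr1:164115014-164115263), all on the plus strand and written 5′ to 3′. Capitals mark GGANNNTCC, a 9-base pattern shaped like an NF-kB site that reads the same on both strands, and TATAAA, searched on both strands. The patterns were chosen after these promoters had been read.
Icam1: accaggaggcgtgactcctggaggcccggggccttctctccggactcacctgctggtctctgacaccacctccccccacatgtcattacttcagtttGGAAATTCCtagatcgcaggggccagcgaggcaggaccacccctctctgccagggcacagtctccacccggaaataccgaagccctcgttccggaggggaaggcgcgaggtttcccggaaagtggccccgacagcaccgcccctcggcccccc
Sele: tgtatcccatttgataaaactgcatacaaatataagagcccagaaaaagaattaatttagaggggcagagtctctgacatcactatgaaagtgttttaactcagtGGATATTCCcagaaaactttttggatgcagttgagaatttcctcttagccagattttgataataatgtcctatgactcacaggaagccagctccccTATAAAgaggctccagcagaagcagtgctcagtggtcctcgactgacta
Madcam1: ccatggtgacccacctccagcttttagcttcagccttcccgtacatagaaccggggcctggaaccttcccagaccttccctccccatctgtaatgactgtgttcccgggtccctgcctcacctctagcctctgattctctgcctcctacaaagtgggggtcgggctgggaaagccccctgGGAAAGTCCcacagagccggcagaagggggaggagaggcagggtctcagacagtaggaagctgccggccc
Selp: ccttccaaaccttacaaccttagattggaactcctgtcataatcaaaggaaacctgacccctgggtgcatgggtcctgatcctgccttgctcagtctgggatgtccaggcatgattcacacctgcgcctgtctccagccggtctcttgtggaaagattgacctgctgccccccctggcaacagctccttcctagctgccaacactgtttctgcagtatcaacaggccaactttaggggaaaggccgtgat
GGANNNTCC stood in the windows of Icam1 (GGAAATTCC, first base at -153 from the start), Sele (GGATATTCC, at -145) and Madcam1 (GGAAAGTCC, at -70). It was not found in that of Selp. TATAAA stood in that of Sele at -49. Of the 9 genes 7 had a promoter in the table, and 3 of the 7 held GGANNNTCC, against 7.27% of all 32851 windows of that length. Because the pattern was chosen after these promoters had been read, these shares are a description and not a test. The NF-kB consensus of 10 bases (GGGRNNYYCC, R for A or G, Y for C or T) reads differently on each strand. It was searched only on the gene's strand, where it was in none of the 7 windows and in 5.00% of all windows. The Madcam1 window holds letters that match it on the other strand (among them GGAAAGTCCC as written), where windows were not counted. TATAAA was in 1 of the 7 and in 12.4% of all. A match describes letters and not a bound site. No promoter was printed for Vcam1 and Icam2.

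The remaining genes do not need a cytokine signal to be made in endothelium. Icam2 encodes a constitutive endothelial ligand of LFA-1. It was at 5.47, 6.38, 6.10 and 6.19 on allogeneic arrays, against 6.09, 5.75, 6.41 and 7.81 on syngeneic arrays, and syngeneic array 4 alone lay well above the rest. Its log2 change was -0.48 ± 0.39 (SE, 95% interval -1.34 to 0.38, limma adjusted p = 0.656), -0.05 without syngeneic array 4 and 0.12 without syngeneic arrays 3 and 4.

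Cd99l2 belongs to the CD99 family of transmigration molecules. It was at 6.81, 6.86, 6.95 and 7.01 on allogeneic arrays, against 6.63, 6.47, 6.75 and 6.91 on syngeneic arrays. The groups overlapped through syngeneic array 4, and both were narrow. The log2 change was 0.22 ± 0.14 (SE, 95% interval -0.09 to 0.52, limma adjusted p = 0.551). It was 0.36 without syngeneic arrays 3 and 4 and 0.38 with the pan-endothelial covariate (limma unadjusted p = 0.0411 and 0.0216, adjusted p = 0.433 and 0.355).

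Alcam encodes the ligand of the T cell molecule CD6 and is made by epithelium as well as by endothelium. It was at 6.96, 6.76, 6.87 and 6.37 on allogeneic arrays, against 6.20, 6.55, 5.91 and 6.09 on syngeneic arrays. Allogeneic array 4 lay below syngeneic array 2, and otherwise the allogeneic arrays were higher. The allogeneic mean was 6.74 ± 0.26 and the syngeneic mean 6.19 ± 0.27 (SD, n = 4 each), and the log2 change was 0.55 ± 0.18 (SE, 95% interval 0.15 to 0.96, limma adjusted p = 0.220), the sole positive one with an unadjusted p below 0.05. It was lowest on syngeneic arrays 3 and 4, where the epithelial marker means (10.2 and 9.94) were lowest too, and without these arrays the log2 change was 0.36 ± 0.20 (SE).

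Cd44 encodes a receptor for hyaluronan that leukocytes, epithelium and endothelium share. It was at 7.64, 7.51, 7.80 and 7.57 on allogeneic arrays, against 7.46, 7.76, 7.24 and 7.45 on syngeneic arrays. Syngeneic array 2 lay within the allogeneic range and the other syngeneic arrays below it. The log2 change was 0.15 ± 0.14 (SE, 95% interval -0.17 to 0.47, limma adjusted p = 0.710). It was 0.08 without syngeneic array 3, 0.25 without syngeneic array 2 and 0.02 without syngeneic arrays 3 and 4.

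**Figure D2:**
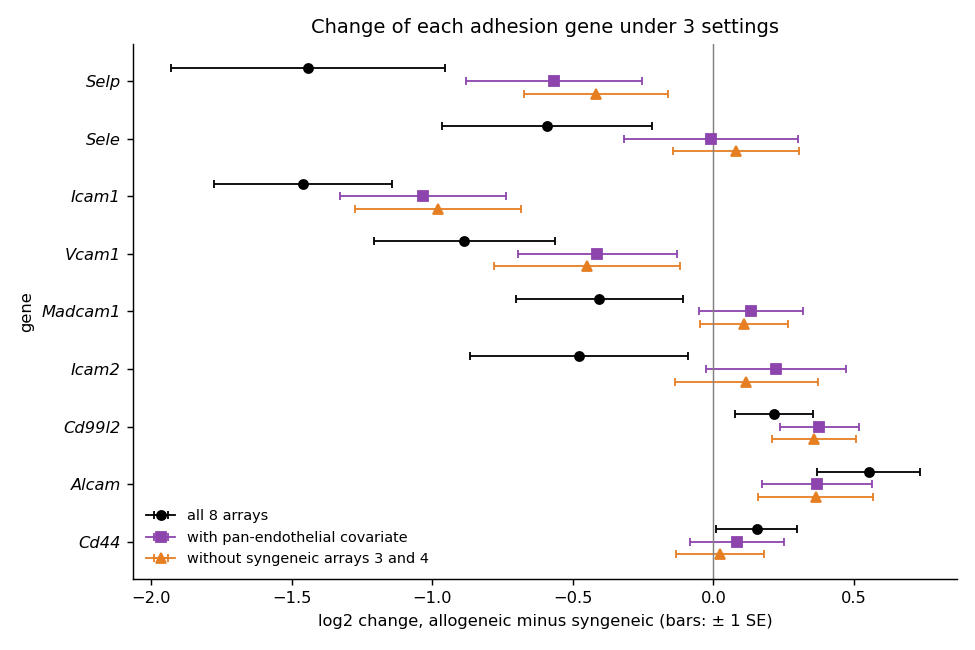
Log2 change, allogeneic minus syngeneic (horizontal axis, bars ± 1 SE), of each adhesion gene (vertical axis) with all 8 arrays, with the pan-endothelial mean as a covariate, and without syngeneic arrays 3 and 4. Icam1 lies at -1.46, -1.03 and -0.98, Madcam1 at -0.41, 0.13 and 0.11, and no gene passed an adjusted p of 0.05 in any of the 3.

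The adhesion genes were next set against the pan-endothelial mean of each array, a list that holds none of them. Over the 8 arrays Pearson's r was 0.93 for Madcam1, 0.91 for Selp, 0.89 for Icam2, 0.82 for Vcam1, 0.82 for Sele, 0.77 for Icam1 and -0.75 for Alcam, and 7 of the 9 relations passed exact permutation after Benjamini-Hochberg adjustment over the 9 (adjusted p from 0.0200 to 0.0303). Spearman's rho was 0.71, 0.83, 0.76, 0.64, 0.55, 0.45 and -0.79 for the same genes, and none passed (exact permutation, smallest adjusted p = 0.110). No relation passed without syngeneic arrays 3 and 4, which had the highest pan-endothelial means. Leaving them out also narrows the range and lowers the number of arrays, so dependence on these arrays and lower power cannot be told apart. Without both, r over the other 6 arrays was 0.35 for Madcam1, 0.65 for Selp, 0.46 for Icam2, 0.46 for Vcam1, -0.54 for Sele, 0.079 for Icam1 and -0.58 for Alcam, and no relation reached an unadjusted p below 0.05 (exact permutation, smallest p = 0.161). For Cd44 and Cd99l2 r over 8 arrays was -0.51 and 0.27 (exact permutation p = 0.204 and 0.526) and rho was -0.52 and 0.36 (exact permutation p = 0.197 and 0.389). The permutation did not keep the groups apart, so a group difference shared by a gene and the endothelial mean can by itself raise r. A low r over both groups does not show that a gene did not follow the endothelial signal, since an offset between groups can lower it. The 4 arrays of a group are too few for a correlation within it.

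**Figure D3:**
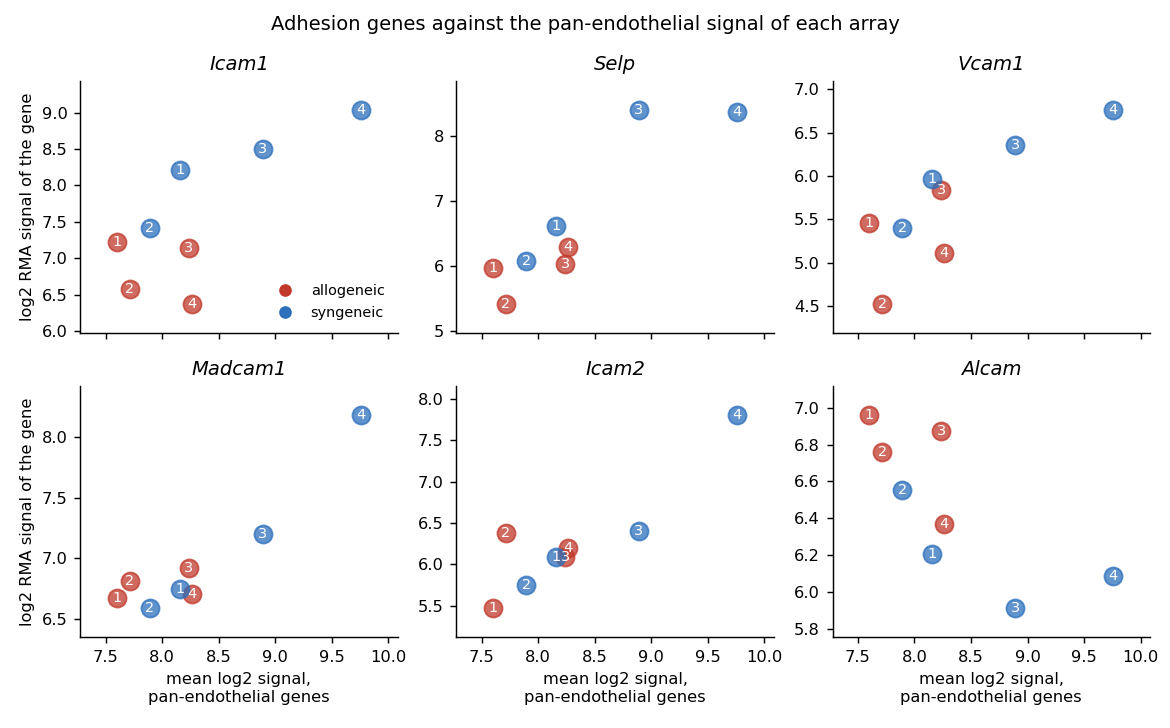
Log2 RMA signal of 6 adhesion genes (vertical axes) against the mean log2 signal of the pan-endothelial genes (horizontal axes), 1 point per array, allogeneic in red and syngeneic in blue, with replicate numbers. Syngeneic arrays 3 and 4 lie to the right at 8.89 and 9.76, and the allogeneic arrays lie below the syngeneic ones for Icam1.

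Whether the induced genes changed by a different amount from Icam2 was tested within arrays, as the log2 difference from Icam2. For Icam1 that difference averaged 0.80 ± 0.76 on the allogeneic side and 1.78 ± 0.42 on the syngeneic side (SD, n = 4 each, difference -0.98, two-sided exact permutation p = 0.0857). For Selp it averaged -0.11 ± 0.62 on the allogeneic and 0.85 ± 0.77 on the syngeneic side (difference -0.97, exact permutation p = 0.0571). For Vcam1, Sele and Madcam1 the groups differed by -0.41, -0.12 and 0.07 (exact permutation p = 0.514, 0.771 and 0.743). None of the 5 passed, before or after Benjamini-Hochberg adjustment over the 5 (smallest adjusted p = 0.214), and the smallest p that 4 against 4 arrays allow is 0.0286. With Pecam1 in place of Icam2, Selp reached that smallest p (difference -0.93, exact permutation p = 0.0286, adjusted p = 0.143). A single gene at that p cannot pass the adjustment over the 5. These within-array values do not depend on the scaling of an array.

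Genes with the most similar patterns over the 8 arrays were sought among 11089 genes above the median level. For Icam1 they were Znfx1 (r = 0.98), Mir1931 (0.98) and Prss34 (0.97). For Selp they were Junb (0.99), Lama5 (0.98) and Apbb2 (0.98), and for Vcam1 Rtp4, Sema3f and Tacc1 (0.96 each). For Icam2 they were Mrtfb, Cmtm3 (0.98 each) and Dock9 (0.97). Such r values are the highest of many over few arrays and describe these arrays only.

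The other genes of leukocyte adhesion were followed through lists ordered by role. Of 23 measured genes for other adhesion and transmigration molecules of endothelium 1 fell, 0 rose and 22 did not pass, and the median log2 change was -0.35. The gene that fell was F11r, which encodes the junctional adhesion molecule JAM-A of endothelial and epithelial junctions. It was at 9.84, 9.87, 10.1 and 9.99 on allogeneic arrays, against 10.5, 10.5, 10.4 and 10.5 on syngeneic arrays, with no overlap. Its log2 change was -0.53 ± 0.09 (SE, limma adjusted p = 0.0340). The call was lost in 6 of 8 fits with a single array removed (those without an allogeneic array or without syngeneic array 1 or 3, limma adjusted p up to 0.127) and without syngeneic arrays 3 and 4 (log2 change -0.55, limma adjusted p = 0.0703), while its value stayed between -0.50 and -0.57 in all of these. It was also lost without an intensity trend (limma adjusted p = 0.0635), with the replicate block (0.0778) and with the pan-endothelial (0.0741) or epithelial (0.0736) covariate, and it held in 8 of 20 alternatives. The tetraspanin gene Cd9 had a log2 change of 0.39 and the scavenger receptor gene Stab1 one of -0.67 (limma adjusted p = 0.223 and 0.290).

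Of 20 measured receptors and factors that induce adhesion molecules none passed, 15 had a negative log2 change, as 51.0% of all genes did, and the median was -0.35. In 7 of them the allogeneic arrays lay below the syngeneic ones without overlap (3.36% of all genes) and in 1 above (5.18% of all genes). Rel, which encodes an NF-kB subunit, was at 6.92, 6.80, 6.57 and 6.57 on allogeneic arrays, against 7.45, 7.52, 7.36 and 7.35 on syngeneic arrays. Its groups did not overlap and its syngeneic arrays were close together (log2 change -0.70 ± 0.13 SE, limma adjusted p = 0.0526). It passed in 4 of 20 alternatives, which were the fit without an intensity trend, both filters on dim genes and array weights (limma adjusted p from 0.0314 to 0.0458). Tnfrsf1b, which encodes a receptor of tumour necrosis factor, followed (log2 change -0.74, limma adjusted p = 0.103). Il1rap, the accessory chain of the interleukin-1 receptor, was higher on all allogeneic arrays (log2 change 0.50, limma adjusted p = 0.208).

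Adhesion molecules are cut from the surface by metalloproteases, and none of the 8 genes of that list passed (median log2 change -0.09). Timp3, which encodes an inhibitor of these proteases, averaged 8.81 ± 0.41 in the allogeneic group and 9.98 ± 0.59 in the syngeneic group (SD, n = 4 each, log2 change -1.17, limma adjusted p = 0.108). Adam8 and Adam15, which encode membrane proteases, had log2 changes of -0.81 and -0.75 (limma adjusted p = 0.136 and 0.298). These 3 did not overlap between groups, each with allogeneic arrays lower, where 3.36% of all genes had that pattern. Among 13 linkers and signalling genes beneath the adhesion molecules none passed and the median was -0.05. The linker gene Ezr, which encodes the ezrin of epithelium, had a log2 change of 0.45, while Msn, which encodes the moesin of endothelium and leukocytes, had one of -0.91 (limma adjusted p = 0.189 and 0.302). Msn was highest on syngeneic arrays 3 (9.84) and 4 (10.6).

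On the leukocyte side none of 13 counter-receptor genes passed, and the median log2 change was -0.07. The genes of the integrin chains that bind the products of Icam1, Vcam1 and Madcam1 are named for that reason. Of the LFA-1 chains, Itgal averaged 4.90 in allogeneic and 5.04 in syngeneic arrays, and Itgb2 averaged 5.72 in allogeneic and 5.69 in syngeneic arrays. Itga4 averaged 6.72 in allogeneic and 7.06 in syngeneic arrays, and its partner Itgb7 averaged 4.89 in allogeneic and 4.97 in syngeneic arrays. The groups overlapped for each of these chains. Selplg, which encodes the main ligand of P-selectin, averaged 5.97 in allogeneic and 6.33 in syngeneic arrays, and Cd6, which encodes the ligand of ALCAM, 4.88 in allogeneic and 4.78 in syngeneic arrays, again with overlap. Means over 13 leukocyte markers ran from 4.71 to 5.33 on allogeneic and from 4.90 to 5.36 on syngeneic arrays, and the one marker that passed was S100a8, a neutrophil gene (limma adjusted p = 0.00424). It was at 2.59, 3.01, 3.27 and 3.41 on allogeneic arrays, against 5.25, 5.08, 4.75 and 4.97 on syngeneic arrays. The allogeneic values lay at or close to the level of the Y-linked genes (up to 3.18), with allogeneic arrays 3 and 4 slightly above it. No size is therefore given for its change. S100a9, the next marker of that list by p, averaged 4.32 ± 0.24 in the allogeneic and 5.16 ± 0.23 in the syngeneic group (SD, n = 4 each). Its groups did not overlap, as for 3.36% of all genes in that direction (log2 change -0.83, limma adjusted p = 0.0590).

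Of 10 measured enzymes that build selectin ligands none passed, 7 had a positive and 3 a negative log2 change, and the median was 0.19. Fut4, a fucosyltransferase gene of the sialyl Lewis x pathway, was at 5.94, 5.85, 5.89 and 5.46 on allogeneic arrays, against 4.92, 5.24, 4.43 and 4.79 on syngeneic arrays. All allogeneic values lay above all syngeneic ones, as for 5.18% of all genes (log2 change 0.94 ± 0.19 SE, limma adjusted p = 0.0593). Fut4 passed in 2 of 19 alternatives, with array weights and without syngeneic array 2 (limma adjusted p = 0.0442 and 0.0356). The sialyltransferase gene St3gal6 did not overlap either, with means of 9.38 ± 0.07 in the allogeneic and 8.89 ± 0.07 in the syngeneic group (SD, n = 4 each, limma adjusted p = 0.0616). St3gal6 passed in 2 of 20 alternatives, over genes above the median level and with array weights (limma adjusted p = 0.0314 and 0.0439). For St3gal3 the groups overlapped (log2 change 0.72, limma adjusted p = 0.132). Of 7 genes that make or break down hyaluronan, the ligand of CD44, none passed. Ugdh, which makes the sugar precursor and is abundant in epithelium, had a log2 change of 0.75, and the hyaluronidase gene Cemip2 one of -0.54 (limma adjusted p = 0.175 and 0.223).

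**Figure D4:**
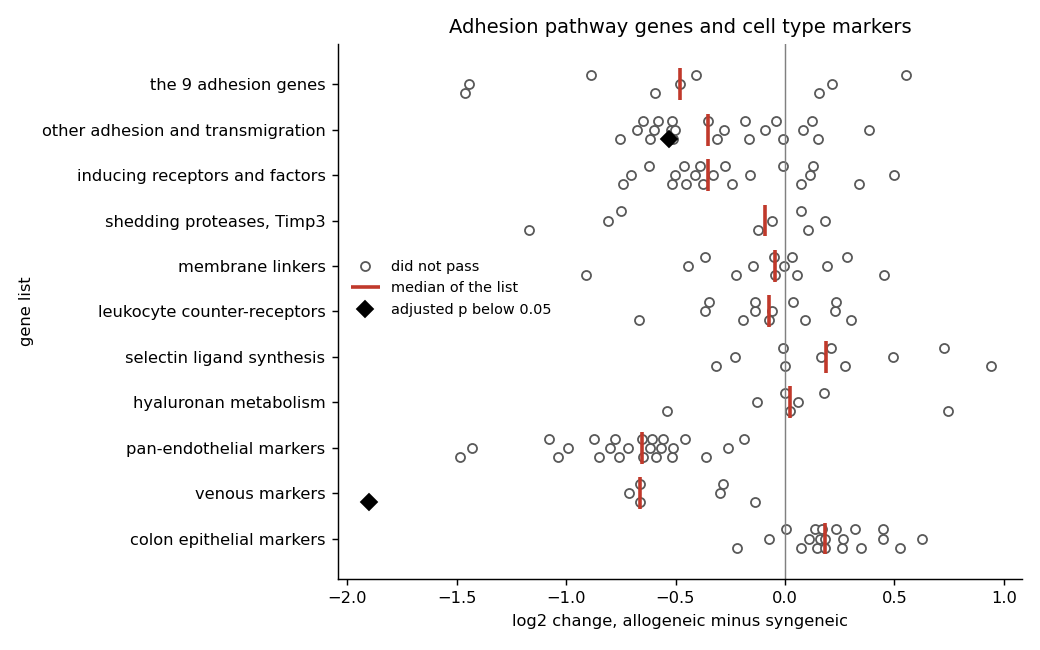
Log2 change, allogeneic minus syngeneic (horizontal axis), of each measured gene (points) in the adhesion lists and in 3 marker lists (vertical axis); red bars are list medians and black diamonds genes past an adjusted p of 0.05. The medians are -0.48 for the adhesion genes, -0.65 for pan-endothelial, -0.66 for venous and 0.18 for colon epithelial markers.

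Marker lists for vessels and epithelium are given beside these values. For all 24 pan-endothelial genes the allogeneic mean was the lower one, and none passed (median log2 change -0.65). Of 7 venous genes all had a negative log2 change and Lrg1 fell (-1.90 ± 0.20 SE, limma adjusted p = 0.00738). Of 20 colon epithelial genes 18 had a positive log2 change, none passed and the median was 0.18. A few vessel markers had changes close to or larger than those of Icam1 (-1.46) and Selp (-1.44). Among the pan-endothelial genes these were Eng (-1.43), which encodes an endothelial co-receptor, and Plvap (-1.48). The next largest pan-endothelial change was that of Robo4 (-1.08). The venous gene Lrg1 exceeded Icam1 and Selp, and was at 9.57, 9.93, 10.2 and 9.87 on syngeneic arrays 1 to 4. With the pan-endothelial covariate its log2 change was -1.90 (limma adjusted p = 0.0236). The part of vessel and epithelial content in the values of the adhesion genes was not tested beyond the fits given above. Lymphatic genes (6 measured, median 0.03) and fibroblast, pericyte and muscle genes (12 measured, median -0.20) had none past the threshold.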

How the data were processed

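RNA of sorted colon cells of transplanted mice was measured on 8 Mouse Gene 2.0 arrays, labelled as biological replicates. The deposited table holds a log2 value for each probe set. The submitters' processing notes name RMA and Affymetrix Expression Console 1.4.1, the authors' tools. RMA corrects background, normalizes quantiles and summarizes probes, so a shift shared by all genes is removed. The annotation used by the authors is not given in the sources used here. Of 41345 probe sets 23521 had exactly 1 gene symbol in the platform annotation, and for each gene the brightest was used, which left 22180 genes. Per the labels' protocols, targets were amplified from 700 pg of total RNA.

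Groups and replicate numbers come from the sample titles. Limma 3.58.1 in R 4.3.3 (lmFit, eBayes with an intensity trend, prior degrees of freedom 4.65) was fitted over all genes without a filter, allogeneic minus syngeneic, with Benjamini-Hochberg adjustment and a threshold of 0.05, and was tested on simulated data. Single values were tested by exact permutation of the arrays. Same-numbered arrays are not stated to share an animal or batch. No batch is given. Limma p-values set a group difference against the spread between these arrays, moderated over all genes. Permutation p-values rank a value among those of rearranged arrays. The adhesion genes, lists and alternatives were chosen with earlier results of these data known. The text names all 9 adhesion genes and, in each list, up to 3 genes with the smallest p. The sort genes, the leukocyte ligands and Pf4 were added by role, and Plvap by the size of its change. Listed genes without a probe set of their own symbol were not analysed here.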

Additional observations from a re-analysis of the deposited data

Results flagged for a closer look

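Allogeneic array 3 had a Sele signal of 3.98, apart from the other allogeneic arrays at 4.60 to 4.67. The gap was 0.900 of the group's range, above Dixon's 95% critical value for 4 samples. Of the 18 groups of values examined (9 genes in 2 groups) this was the only one, and chance flags about 1 in 20.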

How the results depend on the processing

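No adhesion gene passed the threshold in any alternative except Icam1, which passed without syngeneic replicate 2 (between 0 and 1 of the 9 genes passed in fits that left out 1 array) and at an adjusted p below 0.1 (1 gene). The log2 change of Icam1 was negative in all 21 alternatives (-1.75 to -0.74, limma adjusted p 0.0282 to 0.323), as were those of Selp (-1.87 to -0.42) and Vcam1 (-1.13 to -0.16). Alcam, Cd44 and Cd99l2 stayed positive. Arrays centred on the pan-endothelial mean, which moves the median of all genes to 0.72, turned Icam2 (0.24), Sele (0.13), Madcam1 (0.32), F11r (0.19) and Rel (0.017). The pan-endothelial covariate turned Icam2 (0.22) and Madcam1 (0.13), the epithelial covariate Icam2 (0.19), Sele (0.032) and Madcam1 (0.15), and leaving out syngeneic arrays 3 and 4 Icam2 (0.12), Sele (0.080) and Madcam1 (0.11). The cause was not tested.

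Over all genes, 79 were higher and 25 lower. Leaving out 1 array gave 4 to 145 higher and 4 to 35 lower genes, with the highest without syngeneic array 2 and the lowest higher count without allogeneic array 1 or syngeneic array 3. Higher and lower genes were 138 and 55 above the median level (fewer genes tested), 46 and 23 with quantile normalization repeated, 115 and 39 with array weights, 96 and 2 centred on the pan-endothelial mean, 11 and 6 over all probe sets, 19 and 9 with the pan-endothelial and 21 and 8 with the epithelial covariate, 26 and 12 without syngeneic arrays 3 and 4, and 203 and 102 at an adjusted p below 0.1.

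With the replicate number as a block 40 genes were higher and 28 lower, and no adhesion gene passed. Deviations of same-numbered arrays correlated between -0.096 and 0.095, so the numbers are not taken to pair the arrays.

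The difference from Icam2 turned sign for Madcam1 without syngeneic arrays 3 and 4 (-0.0080) and ranged from -0.081 to 0.18 with 1 array left out. For Sele it ranged from -0.35 to 0.066, and was 0.13 against the pan-endothelial mean. Icam1 reached the smallest possible p without allogeneic array 1 (difference -1.30, exact permutation p = 0.0286, adjusted p = 0.143). No such difference passed after adjustment under any alternative, but a single gene at that smallest p cannot pass over 5 tests. Without syngeneic arrays 3 and 4 the smallest possible p was 0.0667 (exact permutation), so none could pass there. With Cdh5 in place of the list mean r was 0.71 for Icam1, 0.78 for Sele and -0.73 for Alcam, no longer past the threshold. Without the 2 arrays farthest from the median r was 0.079 for Icam1, 0.46 for Icam2, 0.46 for Vcam1, -0.54 for Sele, 0.65 for Selp, 0.35 for Madcam1, 0.083 for Cd44 and -0.58 for Alcam. With 4 arrays a group, wide intervals limit all of these comparisons.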
